A study of Mus musculus with 27 samples.

Results

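The genes described here are 31 RNAs of postganglionic sympathetic neurons, the noradrenergic nerve cells whose fibres end in the outer wall of arteries. They were taken by symbol from 4 bulk count tables and 4 single-cell matrices, and all 31 were among the 42373 symbols present in every bulk table. Every sample came from mice on a C57BL/6 background that had received angiotensin II (Ang II, a peptide that constricts vessels and raises blood pressure) for 28 days and this treatment is shared by every group. The genotypes are labelled Cre and TKO. The labels define neither name, nor the cells in which a deletion would act, and the series title places the work on a KLF10 and IL-9 axis of CD4+ T cells in perivascular fibrosis. Bulk RNA was sequenced from non-stripped aorta (3 Cre, 3 TKO libraries), from aorta labelled stripped (4 Cre, 2 TKO), from fibroblasts isolated out of digested aortas (3 Cre, 3 TKO), and from non-stripped TKO aorta that had received Ang II with control IgG (3) or with an anti-IL-9 antibody (2). The single-cell libraries came from digested non-stripped aorta (2 Cre, 2 TKO). What stripping removed is not defined, ages are not given, the antibody experiment has no Cre arm, and no label says whether libraries are separate animals, so p-values measure the spread between these libraries, which may be technical.

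Sympathetic neurons make noradrenaline from tyrosine in consecutive steps catalysed by tyrosine hydroxylase (Th), aromatic amino acid decarboxylase (Ddc) and dopamine beta-hydroxylase (Dbh). A vesicular monoamine transporter (Slc18a2) loads the amines into vesicles, which are released by a SNARE machinery triggered by synaptotagmin, and the noradrenaline transporter (Slc6a2) takes the transmitter back up. Neuropeptide Y (Npy) is a cotransmitter of vasoconstrictor fibres, granins fill the dense-core vesicles, and peripherin, neurofilaments, stathmins and beta-III tubulin build the axon. The neurons lie in ganglia beside the aorta and their axons run through the adventitia and the surrounding fat.

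Because most of the 31 RNAs moved together in 1 comparison, their promoters were searched for motifs, and 5 of the windows that carry the description are shown. RefSeq promoter windows (GRCm38.p6) were matched for 23 of the 31 genes, Nefh, Gap43, Snap25, Nefm, Slc6a2, Stmn2, Nefl and Ret being unmatched, and the 250 bases before each start were searched on both strands. The 23 genes have 28 windows, and a gene was counted where any of its windows held the motif. Shares of all promoters count single windows, so the 2 shares differ in unit. The cyclic AMP response element, TGACGTCA, which reads the same on both strands, was found in 5 of the 23 genes (21.7%; Th, Cartpt, Chgb, Scg2 and Syn1) and in 1.55% of the 32851 promoters in the table. A variant, TGACGTAA, was found in Chga alone (4.35%, against 0.447% of all promoters). The GC box CCGCCC lay in 14 genes (60.9%, against 32.7%), the TATA box TATAAA in Ddc, Prph and Elavl3 (13%, against 12.4%), and the homeodomain core TAATTA in Elavl4 and Hand2 (8.7%, against 4.84%). The windows below are the 200 bases before the start, 5′ to 3′ on the gene's strand, with the response element in capitals: Th at chr7:142899996-142900195, minus strand, Dbh at chr2:27165307-27165506, plus strand, Chgb at chr2:132781442-132781641, plus strand, Scg2 at chr1:79440027-79440226, minus strand, and Cartpt at chr13:99900684-99900883, minus strand. The element begins 45 bases before the RefSeq start in Th, 72 in Chgb, 68 in Scg2 and 112 in Cartpt. GENCODE vM21 begins all 5 genes shown further upstream (Chgb at chr2:132781278, Dbh at chr2:27165233), and those starts were not used. In its window Dbh holds none of the motifs searched. It is shown because it stands beside Th in every comparison.
Th: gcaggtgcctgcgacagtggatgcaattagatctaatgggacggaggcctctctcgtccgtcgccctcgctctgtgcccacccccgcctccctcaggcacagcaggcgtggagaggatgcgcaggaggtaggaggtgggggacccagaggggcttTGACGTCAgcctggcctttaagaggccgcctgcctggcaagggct
Dbh: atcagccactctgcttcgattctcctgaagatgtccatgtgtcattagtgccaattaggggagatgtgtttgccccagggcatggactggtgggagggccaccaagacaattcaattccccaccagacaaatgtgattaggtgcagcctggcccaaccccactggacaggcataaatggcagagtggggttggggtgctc
Chgb: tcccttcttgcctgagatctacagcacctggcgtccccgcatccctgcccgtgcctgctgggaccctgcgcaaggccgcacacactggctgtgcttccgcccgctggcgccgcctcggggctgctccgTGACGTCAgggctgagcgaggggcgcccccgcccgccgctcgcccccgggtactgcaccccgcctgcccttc
Scg2: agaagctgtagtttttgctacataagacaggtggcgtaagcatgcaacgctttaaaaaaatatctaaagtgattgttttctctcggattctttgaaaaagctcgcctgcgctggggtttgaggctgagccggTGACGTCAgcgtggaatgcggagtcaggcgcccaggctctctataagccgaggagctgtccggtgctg
Cartpt: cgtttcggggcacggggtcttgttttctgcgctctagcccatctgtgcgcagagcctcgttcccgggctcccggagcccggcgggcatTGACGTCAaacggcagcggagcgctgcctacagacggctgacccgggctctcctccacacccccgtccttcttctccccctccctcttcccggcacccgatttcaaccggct
These matches are descriptions of letters. Of the 5 genes with the element, Th, Chgb, Scg2 and Syn1 passed the test with the anti-IL-9 antibody. Cartpt, whose level was the lowest of the list, did not. The part of the element was not tested.

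Bulk libraries held 17179257 to 38633457 counts. Klf10, the gene named in the title, had 1049, 943 and 1400 counts in the non-stripped Cre libraries and 822, 696 and 0 in the TKO libraries, so TKO replicate 3 alone was at 0, while the fibroblast tables held 1890 to 2746 counts in both genotypes. Il9 had 0 counts in all bulk libraries except 1 count in fibroblast TKO replicate 1. Some libraries stood apart in RNAs of neighbouring tissue. A summed level of 10 skeletal muscle genes, in CPM after TMM scaling of library sizes, was 409, 1457 and 778 in non-stripped Cre and 4905, 4291 and 17182 in TKO aorta. In the antibody experiment, the adrenal cortex gene Cyp11b1 had 90, 0 and 1 counts with IgG, and 2160 and 5 with the anti-IL-9 antibody. In bulk tissue, fewer cells of a type and less RNA per cell cannot be told apart.

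Read per kilobase of exon, which allows genes to be compared, the order of levels in non-stripped Cre aorta began with Uchl1, a neuronal ubiquitin hydrolase, at 57.9 ± 6.95 CPM per kb (SD, n = 3). Npy (33.5 ± 7.56), Tubb3 (31.9 ± 3.3), Dbh (31.4 ± 1.65) and Prph (30.3 ± 2.73) followed within one another's spread. The lowest were Elavl3 at 0.754 ± 0.0823 and Cartpt at 0.239 ± 0.161. In stripped Cre aorta Uchl1 was again first at 44.1 ± 6.96 (n = 4), and the next were Scg2 at 11.6 ± 5.98 and Hand2 at 10.5 ± 1.74, neither of which was among the 6 highest in non-stripped aorta. In Cre fibroblasts Uchl1 stood at 123 ± 38.8 CPM per kb (n = 3), Tubb3 at 11.7 ± 1.44 and Nefm at 3 ± 1.15, whereas Dbh was at 0.

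Th and Dbh fell from non-stripped to stripped Cre aorta and were near 0 in Cre fibroblasts, and several general neuronal genes did the same. In that order, Prph was at 30.3, 4.98 and 0.111 CPM per kb. Snap25 was at 17.7, 3.26 and 0.0581, and Stmn2 at 28.9, 7.27 and 0.13. Th was at 46.1 to 52 CPM in non-stripped Cre, 4.53 to 13.0 in stripped Cre, and 0 to 0.0267 in Cre fibroblasts, where it had 1, 0 and 0 counts. Dbh had no count in the 3 Cre fibroblast libraries, which allows up to 0.0800, 0.0934 and 0.104 CPM in each (3 counts, counting error only), and 0, 4 and 0 counts in the TKO ones. Uchl1 was also lower in stripped Cre aorta, at 35 to 51 CPM per kb against 52.7 to 65.8 in non-stripped Cre. In fibroblasts Uchl1 went the other way, at 119 to 198 CPM in Cre against 62.0 to 77.4 CPM in non-stripped Cre. In Cre fibroblasts Th and Dbh were thus near 0, and the third enzyme, Ddc, was at 0.162 CPM per kb, close to Stmn2 and Prph. Uchl1, Tubb3 and Nefm stood higher, at 123, 11.7 and 3 CPM per kb. No split between enzymes and general neuronal genes is read from these levels. The tables were counted and scaled separately, and these differences between preparations were not tested.

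**Figure D1:**
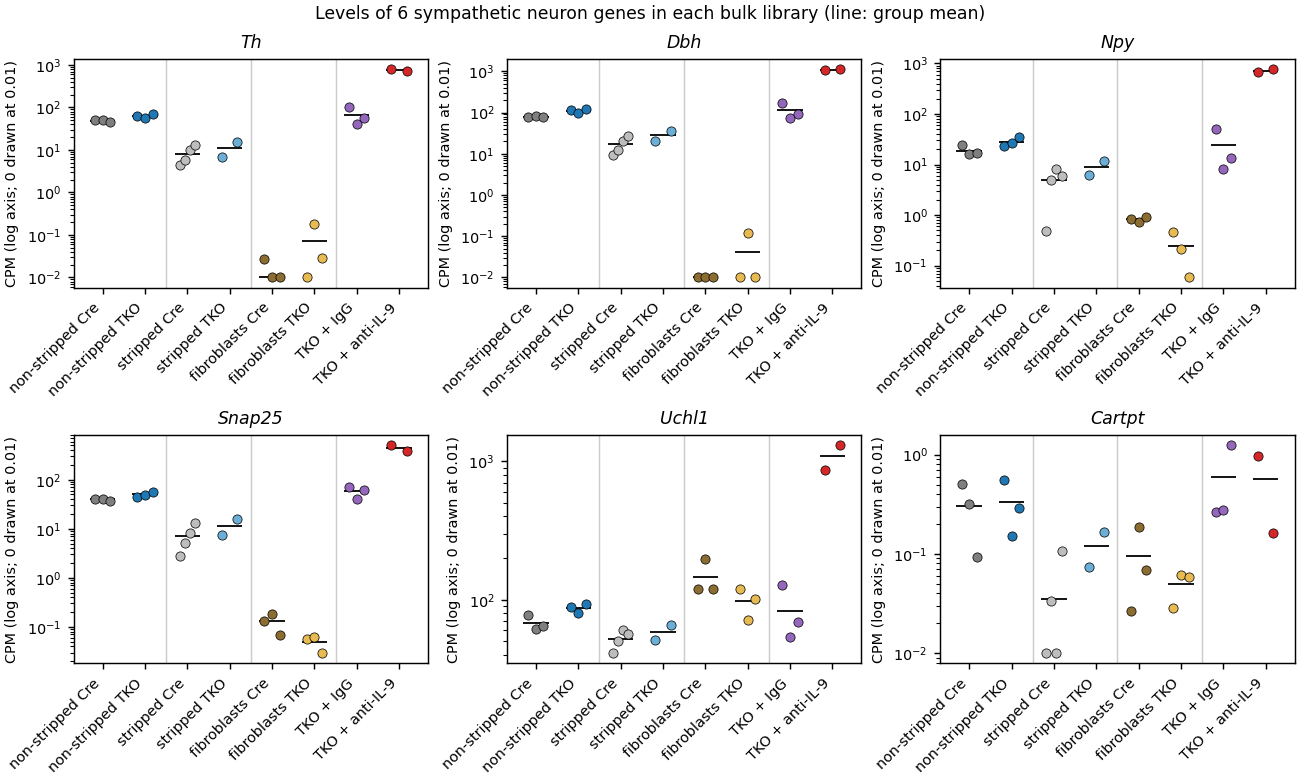
Levels of Th, Dbh, Npy, Snap25, Uchl1 and Cartpt in CPM on a log axis (a value of 0 is drawn at 0.01), 1 point per bulk library in 8 groups, with a line at each group's mean. Th and Dbh are lower in stripped than in non-stripped aorta, near 0 in fibroblasts and highest in the 2 anti-IL-9 libraries, Uchl1 stays above 41 CPM in every group, and Cartpt overlaps between IgG and anti-IL-9.

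With the anti-IL-9 antibody, nearly the whole list was higher than with control IgG in non-stripped TKO aorta. Of the 31 genes tested, 30 rose (edgeR quasi-likelihood test, Benjamini-Hochberg adjusted p under 0.05 over 16463 genes) and Cartpt did not, in a comparison in which 21.0% of all genes tested were called higher and 11.0% lower. All 31 log2 fold changes were above 0, as were 49.0% of those of all genes, and their median was 3.49 (11.2-fold), against -0.014 over all genes, and the called genes ran from 2.84 (Ret) to 4.88 (Npy). In those 30 genes both anti-IL-9 libraries lay above all 3 IgG libraries, as in 32.1% of all genes. The IgG libraries differed among themselves: the summed level of the 31 genes was 1662, 761 and 1028 CPM with IgG and 12510.0 and 13148 CPM with the antibody. IgG replicate 1 was thus the highest of its group and still far below both antibody libraries.

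The enzymes rose together. Th was at 105, 40.7 and 57.5 CPM in the IgG libraries and 784 and 733 CPM in the antibody libraries, a log2 fold change of 3.49 ± 0.38 (SE; adjusted p = 0.00061, edgeR). Dbh stood at 172, 74.6 and 94.8 against 1054 and 1109.9 CPM (3.25 ± 0.35, adjusted p = 0.000581). For Ddc the values were 65.8, 29.7 and 41.5 against 585 and 585 CPM (3.68 ± 0.32, adjusted p = 0.000263). In all 3 enzymes IgG replicate 1 was the highest control and IgG replicate 2 the lowest. Of the transporters, the reuptake carrier Slc6a2 rose from 183, 99.5 and 129.7 to 1164 and 1132 CPM (3.06 ± 0.26, adjusted p = 0.000259), and the vesicular carrier Slc18a2 by 3.88 ± 0.39 (adjusted p = 0.000479). The groups did not overlap in either.

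Among peptides and granule proteins, 5 of 6 rose. Npy, singled out after its values were seen, was at 51.7, 8.25 and 13.5 CPM with IgG and 682 and 761 CPM with the antibody (4.88 ± 0.73, 29.4-fold, adjusted p = 0.00276). It had both the largest fold change of the list and the largest standard error of a called gene, and IgG replicate 1 was several times the other controls. Without that library the log2 fold change of Npy was 6.05, and that of Nefm 4.16 in place of 3.55. Scg3, a granin that helps sort dense-core cargo, was at 14.1, 7.51 and 10.8 against 84.1 and 72.9 CPM (2.86 ± 0.24, adjusted p = 0.000252). Chga, Chgb and Scg2, which form the granule matrix, rose by 3.08, 3.58 and 3.51 on the log2 scale. The peptide precursor Cartpt stood at 0.265, 0.278 and 1.25 CPM with IgG and 0.961 and 0.164 CPM with the antibody. Its groups overlapped and its log2 fold change was 0.03 ± 0.88 (95% interval -2.05 to 2.11, adjusted p = 0.984), so at this depth a change as large as that of Th in Cartpt lay outside the interval.

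All 4 release genes rose by similar amounts. Syt1, the calcium sensor of vesicle fusion, was at 67.4, 39.3 and 54.9 CPM with IgG and 534 and 511 CPM with the antibody (3.28 ± 0.23, adjusted p = 0.000177). The vesicle membrane protein Syp was at 56.9, 35.5 and 43.6 against 340.3 and 379 CPM (2.99 ± 0.21, adjusted p = 0.000177). Syn1, which tethers vesicles to the cytoskeleton, was at 18.5, 10.6 and 12.5 against 123 and 110.0 CPM (3.07 ± 0.23, adjusted p = 0.000182). In all 3 genes the controls lay far below both antibody libraries. The SNARE protein Snap25 was at 71.9, 41.4 and 61.4 against 509 and 379 CPM (2.93 ± 0.26, adjusted p = 0.000272).

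All 8 genes of the cytoskeleton and axon rose, by 3.1 (Nefh) to 3.92 (Stmn3), with a median of 3.54. The light neurofilament Nefl was at 26.5, 13.8 and 16.4 CPM with IgG and 249 and 229 CPM with the antibody (3.66 ± 0.27, adjusted p = 0.000181). Its heavy partner Nefh was at 11.8, 5.93 and 8.40 against 70.0 and 79.5 CPM (3.1 ± 0.26, adjusted p = 0.000243). Beta-III tubulin, Tubb3, was at 104, 51.0 and 63.4 against 821 and 857 CPM (3.53 ± 0.3, adjusted p = 0.000256). Axon growth and cytoskeletal genes did not differ in direction, and Prph, the intermediate filament typical of peripheral neurons, reached 848 and 1059 CPM from 101, 39.6 and 54.9.

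The neuronal RNA-binding protein Elavl4 had the smallest p of the list: it was at 8.22, 5.56 and 6.52 CPM with IgG and 66.7 and 68.2 CPM with the antibody (3.32 ± 0.17, adjusted p = 0.000172). Elavl3 and Uchl1 rose by 3.17 and 3.71 on the log2 scale. Ret, the receptor tyrosine kinase for GDNF family ligands, was at 24.6, 17.2 and 20.9 against 148 and 152 CPM (2.84 ± 0.16, adjusted p = 0.000172), the smallest called change of the list with the smallest standard error. Ngfr, the low-affinity neurotrophin receptor, rose by 3.61. The transcription factors Phox2a, Hand2 and Isl1, which specify or maintain noradrenergic identity, rose by 3.26, 3.69 and 3.49. They passed from 4.87 to 12.8 CPM to 73.0 and 87.8 CPM for Phox2a, and for Isl1 from 2.83 to 7.06 CPM to 59.7 and 52.5.

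**Figure D2:**
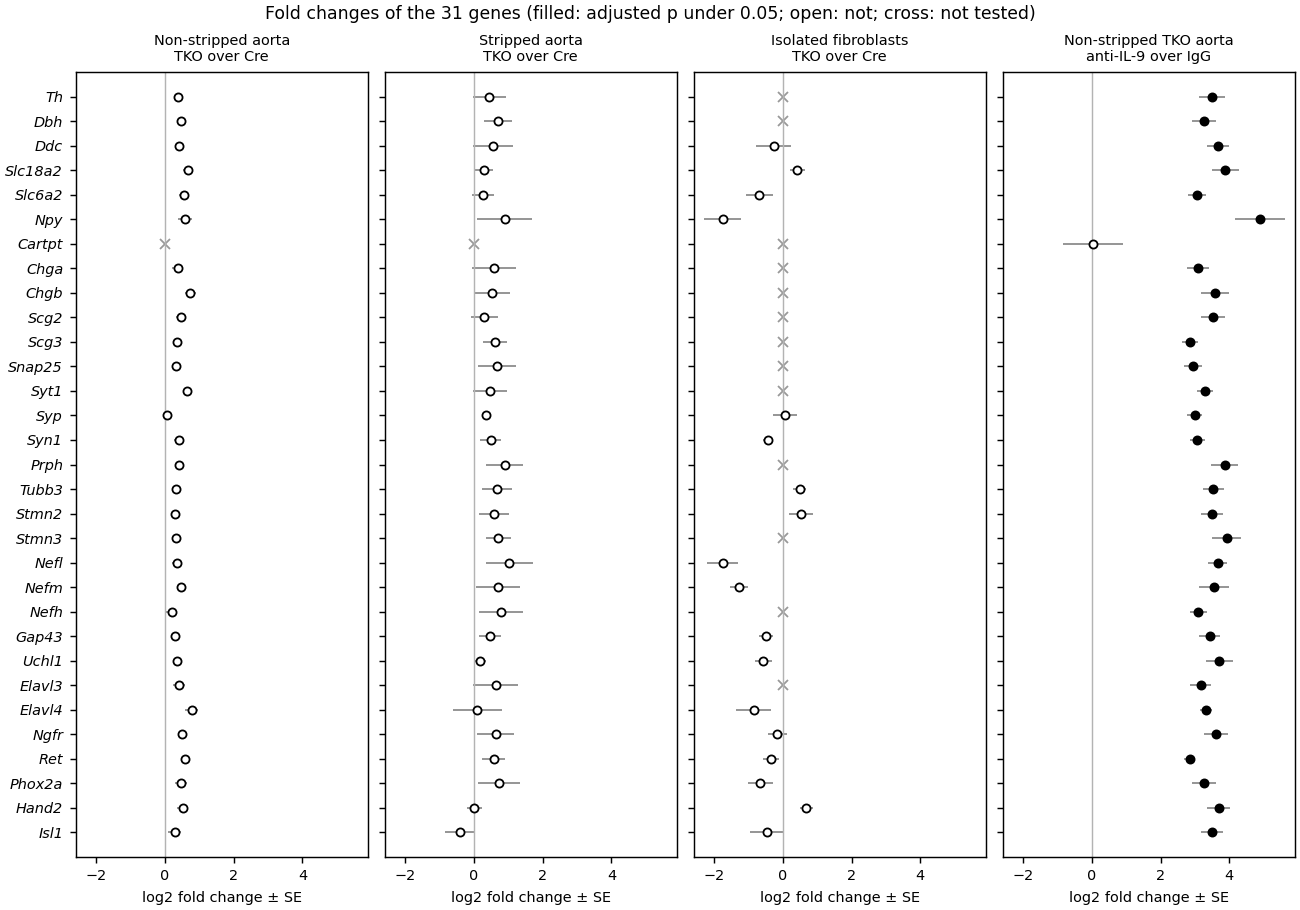
Log2 fold change with its standard error for each of the 31 genes, ordered by role, in the 4 bulk comparisons. Filled points have an adjusted p under 0.05, open points do not, and crosses were not tested. All filled points are in the anti-IL-9 comparison, where 30 genes lie between 2.84 and 4.88 and Cartpt is at 0.03, while in non-stripped TKO against Cre aorta the 30 tested genes lie between 0.06 and 0.77.

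Many other neuronal genes, from lists that do not hold the 31, moved with them. Those lists were also chosen with earlier results of these data known, so they describe the change and are not independent support. Of 8 tested sympathetic and autonomic transcription factors 6 rose, with a list median of 3.77, Gata3 (3.82) and Hand1 (4.36) among them. Of 17 pan-neuronal genes 16 rose (median 2.9, the smallest p being those of Tubb2b, Mapt and Nsg1), and of 22 synaptic and dense-core vesicle genes 21 rose (median 2.98, the smallest p being those of Syn2, Gal and Dnm1). Among 12 neurotrophic factors and receptors 3 rose and 2 fell (median -0.27). Gfra3 and Gfra2, coreceptors for GDNF family ligands, rose by 1.57 and 1.14. Of 15 adrenergic and Npy receptors and clearance enzymes 6 rose and 4 fell (median -0.04), the smallest p being those of the amine oxidases Maoa (3.57) and Maob (1.0) and the presynaptic receptor Adra2c (3.22). None of 4 cholinergic genes passed, and none had an unadjusted p under 0.05 (smallest adjusted p = 0.213, Nos1, edgeR). Of 7 sensory genes 3 rose and 1 fell (Avil 3.25, Scn10a 3.2, Trpv1 -1.72).

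Markers of other cell types moved in the same comparison, in both directions. Of 14 Schwann and satellite glia genes 13 rose, with a median of 1.72, below that of the 31, and a summed level of 440.1, 425 and 408 CPM with IgG and 1054 and 993 CPM with the antibody. Skeletal muscle genes rose in 9 of 10 (median 3.33; 48.4, 10.9 and 23.4 against 279 and 219 CPM). All 7 mesothelial genes fell (median -5.26), from 139, 138 and 311 CPM to 7.13 and 4.37. White fat genes fell in 3 of 7, brown fat genes in 1 of 8, and lymphoid genes rose in 3 of 10. The part of these tissues in the change of the 31 genes was not tested. Of 11 tested genes in the chromaffin and adrenal cortex list, which joins steroid-making cortex genes to chromaffin genes, 3 rose. Their median was 4.09, above that of the 31, and 10 of the 11 lay above 0. The list's summed level was 94.4, 28.1 and 37.6 CPM with IgG and 1349 and 45.2 CPM with the antibody. That sum was thus high in antibody replicate 1 alone. The list also holds Penk, the leading gene of a fibroblast-like cluster in the single-cell libraries, so its sum is not a measure of adrenal RNA alone. Slc18a1, the vesicular amine transporter of chromaffin cells, was higher in both antibody libraries (63, 26 and 28 counts with IgG, 657 and 348 with the antibody, log2 3.44 ± 0.38, adjusted p = 0.000703, edgeR). Pnmt, the enzyme that makes adrenaline in chromaffin cells, had 6, 1 and 4 counts with IgG and 8 and 5 with the antibody. Without antibody replicate 1, 30 of the 31 genes were called higher, in a fit that takes its spread from the IgG libraries and assumes that the lone antibody library varies like them. The part of adrenal RNA in the change of the 31 genes was not tested.

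**Figure D3:**
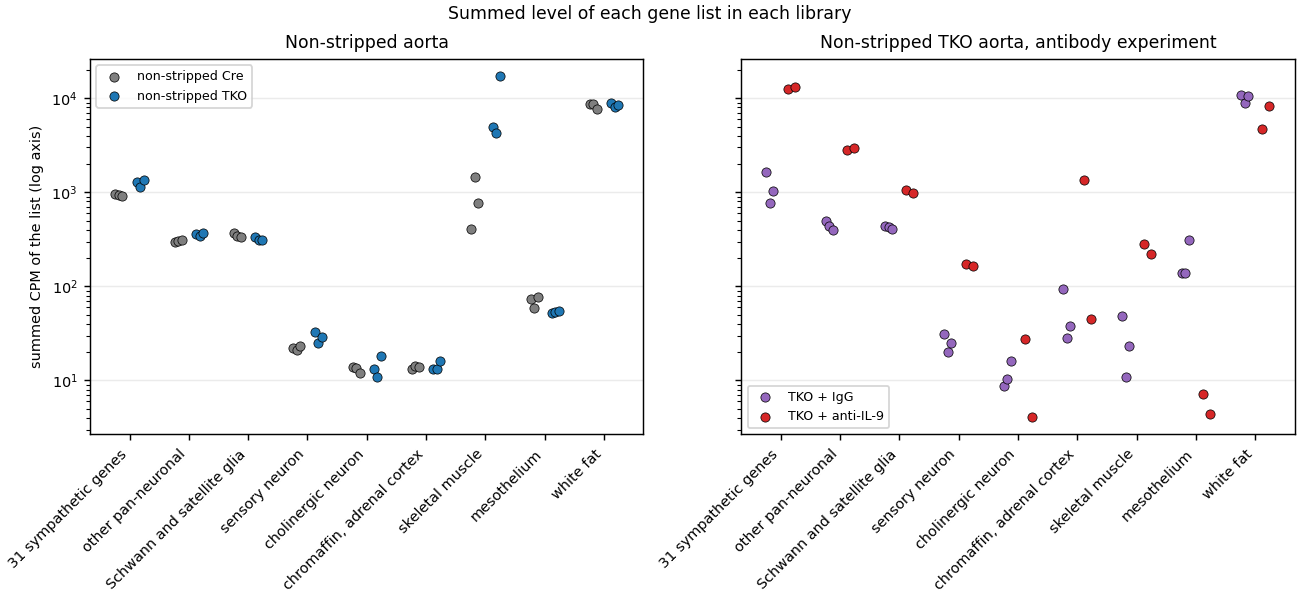
Summed level of each gene list in CPM on a log axis, 1 point per library, for non-stripped Cre and TKO aorta (left) and for the antibody experiment (right). On the right the 31 genes pass from 761 to 1662 CPM with IgG to 12510.0 and 13148 CPM. Schwann and satellite glia genes pass from 408 to 440.1 CPM to 1054 and 993, and mesothelial genes fall from 138 to 311 CPM to 7.13 and 4.37. The chromaffin and adrenal cortex list is high in 1 antibody library. On the left the 31 genes are at 915 to 959 CPM in Cre and 1141 to 1339.9 CPM in TKO, and skeletal muscle is higher in all TKO libraries.

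Likeness to Th across the 5 libraries of this experiment was close to complete for most of the list and is given as a description, since the libraries fall into 2 groups and share a scaling. Pearson's r of log2 CPM with Th was 0.991 or more for the tested genes other than Cartpt, for which it was -0.076. By the same measure the genes most like Th in the whole table were Syt5 (0.9998), Cabyr, Olfm2 and Fam163a, and among the 10 most alike 1 was on the list, Slc18a2. In the 6 libraries of the genotype comparison in non-stripped aorta the most alike was Drd2 (0.996), a dopamine receptor, followed by Scg5 and Syt9.

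In non-stripped aorta, TKO libraries had somewhat more of these RNAs than Cre libraries, but no single gene passed the threshold. All 30 genes tested had a log2 fold change above 0 (Cartpt was too low to test), against 47.3% of all genes, with a median of 0.40 (1.32-fold) and -0.018 over all genes. None was called by edgeR, in a comparison that called 0.0594% of genes higher, while 26 had an unadjusted p under 0.05, all of them higher, as did 12% of all genes in that direction and 5.85% in the other, and DESeq2 called 10. The 3 TKO libraries lay above the 3 Cre libraries in 25 genes, compared with 14.9% of all genes. The summed level was 959, 934 and 915 CPM in Cre and 1296, 1141 and 1339.9 CPM in TKO.

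In the Cre libraries Th was at 52, 49.6 and 46.1 CPM, with TKO values of 64.2, 56.5 and 70.1 CPM (a log2 change of 0.37 ± 0.1, adjusted p = 0.123, edgeR). Dbh was at 79.4, 84.8 and 76.5 against 115, 98.0 and 119 CPM (0.46 ± 0.1, adjusted p = 0.0828). Neither pair of groups overlapped, and TKO replicate 2 was the lowest TKO library in both. The 3 genes with the smallest p, none of them passing, were Syt1, Ret and Chgb. Syt1 was at 42.5, 47.3 and 44.1 against 68.8, 59.9 and 78.6 CPM (0.63 ± 0.11, adjusted p = 0.0729). Ret was at 17.2, 17.8 and 17.5 against 29.4, 24.5 and 24.6 CPM (0.58 ± 0.11, adjusted p = 0.0729). Chgb was at 10.3, 7.34 and 8.27 against 13.3, 14.4 and 15.6 CPM (0.74 ± 0.15, adjusted p = 0.078).

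By role the medians were 0.41 for the enzymes, 0.6 for the transporters, 0.47 for the peptides and granins, 0.36 for release genes, 0.32 for the cytoskeleton, 0.53 for the trophic receptors and 0.46 for the transcription factors. The smallest change was that of Syp (38.5, 38.6 and 37.0 against 40.4, 39.3 and 39.3 CPM, log2 0.06), and the largest that of Elavl4 (4.38, 4.47 and 4.46 against 7.13, 6.36 and 9.30 CPM, log2 0.77 ± 0.18, adjusted p = 0.0868). Without TKO replicate 2, 9 genes were called higher, Dbh at 0.55 (adjusted p = 0.0428), Syt1 at 0.73 (adjusted p = 0.0329) and Ret at 0.64 (adjusted p = 0.0451) among them. Without TKO replicate 3, the library in which Klf10 was at 0, Ret alone was called (1 gene, 0.63, adjusted p = 0.0439).

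Beside them, 14 of 15 other pan-neuronal genes (median 0.31) and 17 of 21 other synaptic genes (median 0.35) were above 0, Syt4 at 0.8 and Syn2 at 0.67 having adjusted p-values of 0.0591, and none passed. Among the remaining lists none of the genes passed either: medians were -0.07 for other transcription factors, -0.15 for neurotrophic factors, 0.02 for adrenergic receptors and clearance, -0.25 for cholinergic, 0.06 for sensory, 0.08 for chromaffin and adrenal cortex and -0.05 for Schwann and satellite glia genes. For skeletal muscle the median was 3.27 and no gene was called, for the fat lists -0.09 (brown) and -0.12 (white), for lymphoid genes -0.42 and for mesothelial genes -0.45. Skeletal muscle RNA was thus higher in all 3 TKO libraries beside the neuronal genes, and its part in their difference was not tested.

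In stripped aorta no gene passed the threshold either. Of 30 genes tested, 29 had a log2 fold change above 0 for TKO over Cre (50.2% of all genes did), with a median of 0.58 and 0.001 over all genes. None was called by edgeR, in a comparison that called 0.0120% of genes higher, or by DESeq2, and 1 had an unadjusted p under 0.05, in the higher direction, as had 7.38% of all genes higher and 6.37% lower. TKO lay above Cre without overlap in 2 genes, Syp and Ret, as in 12% of all genes. Th was at 4.53, 5.66, 9.87 and 13.0 CPM in Cre and 6.82 and 15.6 CPM in TKO (0.44 ± 0.48, 95% interval -0.68 to 1.55, adjusted p = 0.719). Dbh was at 9.46, 12.4, 20 and 27.1 against 20.6 and 35.3 CPM (0.7 ± 0.41, adjusted p = 0.495). In both genes TKO replicate 1 lay inside the range of the Cre libraries, and without TKO replicate 2 the change of Th was -0.28.

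The 3 genes with the smallest p there were Syp, Stmn3 and Ret. Syp was at 19.1, 17.6, 18.1 and 20.7 CPM in Cre and 25.1 and 23.2 CPM in TKO (0.35 ± 0.11, adjusted p = 0.256). Stmn3, a microtubule-destabilising stathmin, was at 2.17, 2.79, 4.24 and 4.45 against 4.08 and 7.09 CPM (0.71 ± 0.36, adjusted p = 0.436), and Ret at 5.08, 9.92, 13.7 and 11.4 against 15 and 14.8 CPM (0.57 ± 0.33, adjusted p = 0.491). Cre replicate 1 was the lowest of its group in most of the list, with Npy at 0.496 CPM against 4.89, 8.26 and 6.07 in the other Cre libraries. Isl1 alone was below 0, at -0.42 ± 0.43. No gene of any other list was called. Medians were 0.31 for other transcription factors, 0.23 for pan-neuronal, 0.31 for synaptic, -0.07 for neurotrophic, 0.07 for adrenergic, 0.24 for cholinergic, 0.23 for sensory and 0.24 for adrenal genes. Schwann and satellite glia genes had a median of 0.96 (935 to 1068 CPM in Cre, 1132 and 1434 in TKO), brown fat 1.58, white fat 1.02, skeletal muscle -0.95, lymphoid genes 1.94 and mesothelial genes -2.14, and their part was not tested.

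Whether the genotype effect differed between the preparations was tested by an interaction term. Of 31 genes tested, 10 differences (non-stripped minus stripped) were above 0 and 21 below, from -1.45 to 0.7 with a median of -0.21. None was called by edgeR, where 0.00571% of genes were called higher, and none by DESeq2. Syp alone had an unadjusted p under 0.05 (-0.30 ± 0.12, adjusted p = 0.233, edgeR). For Th the difference was -0.06 ± 0.5 and for Dbh -0.23 ± 0.45, standard errors larger than the effects themselves.

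The make-up of the list also differed between preparations when each count was divided by the Dbh count of its own library, which removes scaling. For 21 of 30 genes the median ratio in stripped aorta was within 2-fold of that in non-stripped aorta, for 9 it was higher than that, and for none was it lower than that. Scg2 over Dbh was 0.125 to 0.171 in the 6 non-stripped libraries and 1.16 to 2.14 in the 6 stripped ones, a ratio of medians of 9.41. Hand2 went from 0.139 to 0.172 up to 0.849 to 2.47 (7.77), and Uchl1 from 0.731 to 0.975 up to 1.87 to 4.36 (3.45). None of these ranges overlapped. Ret (2.75), Scg3 (2.74), Isl1 (2.5), Syp (2.49), Chgb (2.4) and Syn1 (2.3) were the others. A higher ratio is not a higher level, as Dbh itself was at 31.4 CPM per kb in non-stripped and 6.75 in stripped Cre aorta. Of these 9 genes, Scg2 (4.83 and 11.6) and Hand2 (5.23 and 10.5) were higher in stripped Cre aorta. The rest, Uchl1 (57.9 and 44.1) among them, were lower, and these differences were not tested. Th over Dbh was 0.559 to 0.655 against 0.332 to 0.495, a ratio of medians of 0.798, and for Slc6a2 over Dbh it was 1. In the antibody experiment, Scg2 over Dbh was 0.128 to 0.206, and Npy over Dbh ran from 0.111 to 0.686, the widest range among the genes other than Cartpt.

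**Figure D4:**
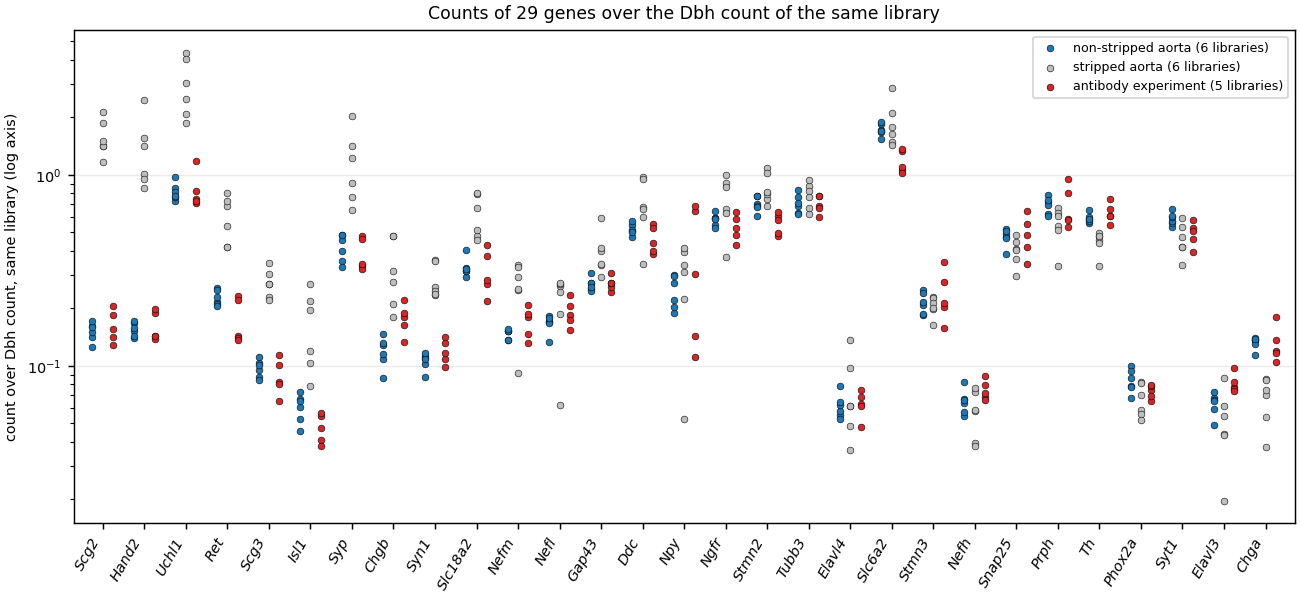
Count of each gene divided by the Dbh count of the same library, on a log axis, with genes ordered by the ratio of the stripped median to the non-stripped median. For Scg2, Hand2 and Uchl1, at the left, all 6 stripped libraries lie above all non-stripped ones (Scg2 at 1.16 to 2.14 against 0.125 to 0.171), while for Th they lie below (0.332 to 0.495 against 0.559 to 0.655).

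In isolated fibroblasts, 18 of the 31 genes passed the filter on low counts and 13, Th and Dbh among them, did not. Of the 18, 5 had a log2 fold change above 0 for TKO over Cre (as had 51.9% of all genes) and 13 below, with a median of -0.45 and 0.008 over all genes. edgeR called none in either direction, where 0.0319% of genes were called in each, and 8 had an unadjusted p under 0.05 (2 higher, 6 lower, where 5.55% and 6.56% of all genes did). TKO lay above Cre without overlap in 2 genes and below in 6, as in 8.86% and 8.45% of all genes. DESeq2 called 2 lower. For Th the Cre libraries had 1, 0 and 0 counts and the TKO libraries 0, 6 and 1, and no fold is given for it or for Dbh.

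The neurofilaments Nefm and Nefl had the smallest p. Nefm was at 12.5, 24.9 and 14.5 CPM in Cre and 6.98, 6.13 and 8.18 CPM in TKO (-1.29 ± 0.26, adjusted p = 0.217, edgeR). Nefl was at 1.73, 4.58 and 1.60 against 0.769, 0.586 and 0.964 CPM (-1.76 ± 0.45, adjusted p = 0.244). All TKO libraries lay below all Cre libraries in both, and Cre replicate 2 was the highest. Without that library the change of Nefl was -1.10 (adjusted p = 0.443) and that of Nefm -0.93 (adjusted p = 0.189). The neighbouring genes are transcribed from opposite strands of chromosome 14, Nefl at chr14:68083863-68089095 and Nefm at chr14:68082590-68124846 in GENCODE vM21 (GRCm38), where they overlap, and counting by strand is not stated in the sources used here, so reads could pass between them. DESeq2 called both (adjusted p = 4.74e-05 for Nefm and 0.00837 for Nefl). Hand2 went the other way, at 4.72, 3.74 and 6.07 against 7.15, 7.37 and 8.53 CPM (0.67 ± 0.19, adjusted p = 0.273). The other lists held no called gene. Their medians ran from -0.75 (chromaffin and adrenal cortex) to 0.95 (cholinergic, 1 gene tested), with 0.42 for Schwann and satellite glia, 0.3 for skeletal muscle, 0.31 for lymphoid, -0.34 for mesothelium, 0.09 for pan-neuronal, 0.14 for synaptic, 0.08 for transcription factor, 0.11 for neurotrophic, -0.08 for adrenergic, 0.06 for sensory, -0.06 for brown fat and -0.09 for white fat genes.

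Few barcodes of dissociated aorta carried many of the genes. Of 114998 barcodes, 43812 were kept as cells (at least 500 genes, 1000 UMIs and at most 15% mitochondrial UMIs), 14489 and 6533 in the Cre and 15365 and 7425 in the TKO libraries, with median depths of 2768.0, 1683.0, 1593.0 and 1409.0 UMIs. The Cre libraries were unlike each other. Cre replicate 2 kept 6533 of 33207 barcodes. Its median mitochondrial share over all barcodes was 18.16%, against 9.32% in Cre replicate 1 and 7.25% and 10.82% in the TKO libraries. Cre replicate 1 gave 2102 of 2191 cells of a macrophage-like cluster and 1221 of 1235 cells of a B cell-like cluster. Pairs of libraries shared 12 to 68 cell barcodes, at most 0.552% of the smaller. None of 34 clusters was named from the neuron markers. The 31 genes, which include most of those markers, were left out of the clustering, so it could not group cells by them. Among all barcodes, 4 had 10 or more of the 31 genes, all in TKO libraries. The richest, in TKO replicate 2, had 25 of the genes, with 17 UMIs of Dbh, 15 of Stmn2, 13 of Prph, 12 of Tubb3, 8 of Npy and 7 of Th in 5184 UMIs, and fell in the Schwann-like cluster. A second, in TKO replicate 1, had 17 of the genes and 21 UMIs of Slc18a2 but 22.2% mitochondrial UMIs and was not kept. The others had 12 (TKO replicate 2, not kept) and 10 genes (TKO replicate 1, kept). In the Cre libraries no barcode had more than 6.

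That single barcode held most of the Th and Dbh UMIs of the Schwann-like class, 499 cells named from 10 glial markers, Sox10 among them. Th had 8 UMIs in this class, 7 of them in 1 cell of TKO replicate 2, and Dbh had 19 UMIs, 17 of them in 1 cell of the same library. In the 205 and 58 Schwann-like cells of the Cre libraries both genes had 0 UMIs, which allows shares of cells with a UMI of up to 1.46% and 5.17% (3 cells). By UMIs per 10000 UMIs of a class, 13 of the 31 genes were highest in the Schwann-like class, and without the barcodes rich in these genes 7 were. The 6 that were then higher in another class were Th, Npy, Snap25, Syt1, Prph and Stmn3. Dbh was left with 2 UMIs in the Schwann-like class (0.0205 per 10000, against 0.0202 in T cell-like cells). Of the 13, Elavl3 had 1 UMI there, Nefm 2 and Chgb 3. No order is read for these sparse genes. Ngfr, which Schwann cells also make, had 31 UMIs there in 22 cells (0.315 per 10000, and 0.297 without that barcode), and was found in all 4 libraries. In this class 0 of the 31 genes passed the filter on low UMIs, so none was tested between genotypes there, and of the 3717 genes tested 0% were called in either direction.

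Elsewhere in the aorta, several of the genes had their highest level in classes other than the Schwann-like one. Slc18a2 was at 9.57 per 10000 UMIs in mast cell-like cells, where 72.4% of 170 cells had a UMI, and these held 50.6% of its UMIs. The next class, lymphatic endothelium-like, was at 0.102. Stmn2 was highest in lymphatic endothelium-like cells (2.2 per 10000, 27.7% of 1129 cells with a UMI), and so was Gap43 (0.43, with 0.336 in the Schwann-like class). Uchl1 was at 1.46 in smooth muscle-like cells and 0.39 in fibroblast-like cells. The noradrenaline transporter Slc6a2 had 80.5% of its UMIs in fibroblast-like cells (0.2 per 10000). Hand2 was highest in smooth muscle-like cells (0.216), where 5.5% of cells had a UMI against 0.108% of B cell-like cells. Isl1 was highest in mesothelium-like cells (0.267, 6.14% of cells), with endothelium-like cells at 0.195 and 0.143% of B cell-like cells with a UMI. Elavl4 was sparse, with 45 UMIs in 7291 macrophage-like cells (0.0244 per 10000) and 2 UMIs in the Schwann-like class (0.0203), and no order is read from these. Likewise a Slc6a2 UMI was in 3.02% of 12864 fibroblast-like cells and 0.43% of 2788 B cell-like cells, a type that should lack it, at median depths of 1670.0 and 1498.5 UMIs. Of Chga, 873 of its 892 UMIs were in Cre replicate 2, where 15 cells with 5 or more UMIs, spread over 7 classes, held 865.

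**Figure D5:**
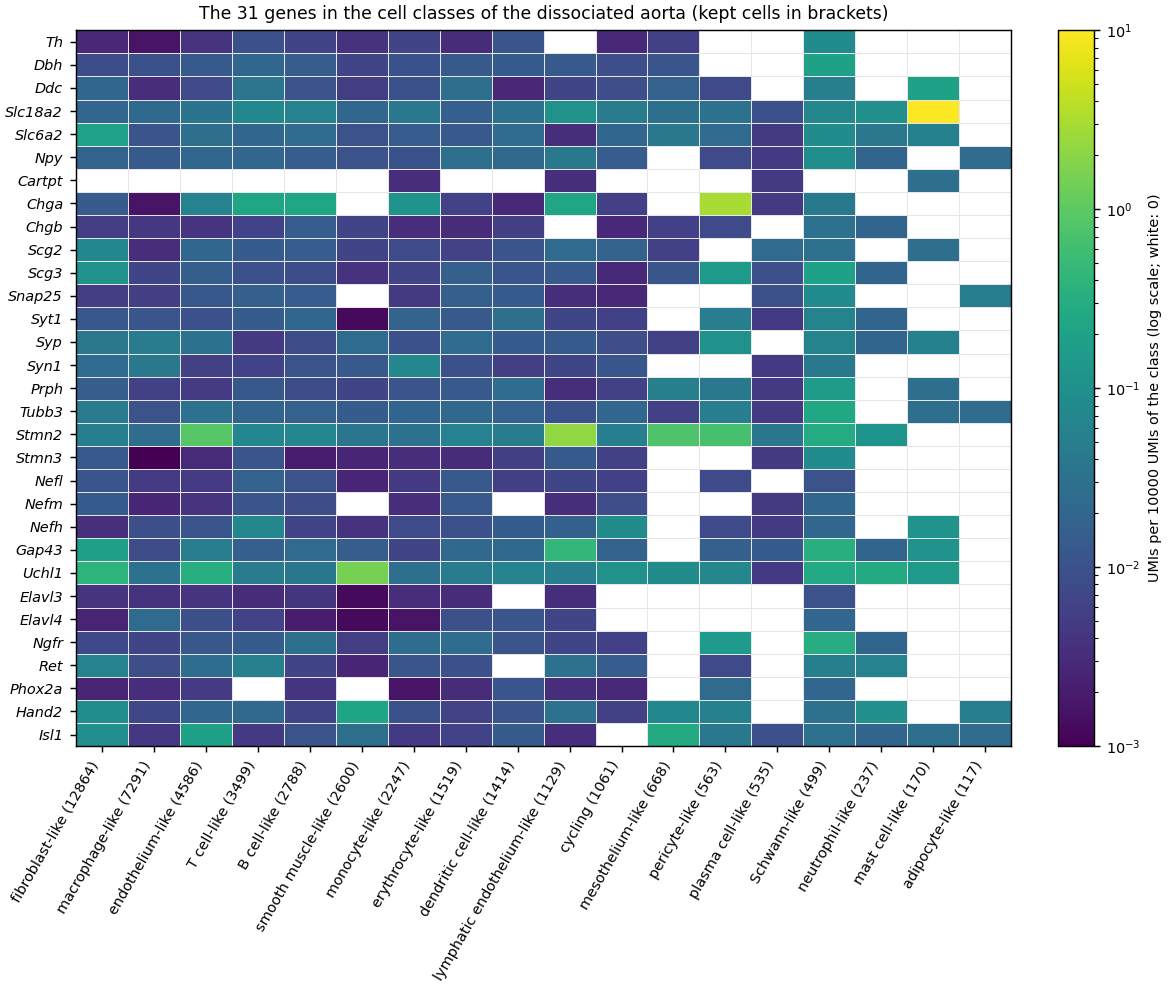
UMIs of each of the 31 genes per 10000 UMIs of each cell class (log colour scale, white for 0), over the 4 single-cell libraries, for classes of 50 or more kept cells given in brackets. Slc18a2 is brightest in the mast cell-like class (9.57), Stmn2 in the lymphatic endothelium-like class (2.2) and Uchl1 in the smooth muscle-like class (1.46), while Th and Dbh reach 0.0814 and 0.193 in the Schwann-like class, where 1 barcode holds most of their UMIs.

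Summed over kept cells of each library, 28 of the 31 genes passed the filter (Cartpt, Chga and Elavl3 did not) and 19 were above 0 for TKO over Cre (48.3% of all genes were), with a median log2 fold change of 0.90. One was called higher and 0 lower by edgeR, where 0.0381% and 0.102% of genes were called. Of the 28, 11 had an unadjusted p under 0.05, all of them higher, as had 1.35% of all genes higher and 0.909% lower, and 14 had both TKO libraries above both Cre libraries, as had 10.7% of all genes tested. The called gene was the granin Scg2, with 6 and 1 UMIs in Cre and 189 and 89 in TKO (0.116 and 0.0840 against 6.22 and 7.79 CPM, log2 5.94 ± 0.45, adjusted p = 0.039). It was not called without TKO replicate 1 (adjusted p = 0.162), without TKO replicate 2 (adjusted p = 0.0771) or over every deposited barcode (log2 4.08, adjusted p = 1), where Cre replicate 2 had 33 UMIs. Most Scg2 UMIs lay in a fibroblast-like cluster led by Fmod, Thbs4, Dio2 and Comp: 1 and 0 in the Cre libraries and 108 and 65 in the TKO libraries, 57.1% and 73% of all Scg2 UMIs there. In that cluster 1.95% of 2363 and 1.71% of 1050 TKO cells had a Scg2 UMI, against 0.158% of 634 cells in Cre replicate 1 and 0 of 273 cells in Cre replicate 2, which allows up to 1.1%. In B cell-like cells the share was 0.59% and 0.592% in the TKO libraries.

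Th, Dbh and Prph were not called, although both TKO libraries lay above both Cre libraries. Th had 1 and 1 UMIs in Cre and 29 and 15 in TKO (4.86, adjusted p = 0.298), Dbh 6 and 3 against 75 and 38 (4.17, adjusted p = 0.163), and Prph 16 and 4 against 78 and 31 (3.03, adjusted p = 0.187). These values moved with single libraries: Th was 3.62 (adjusted p = 0.299) without Cre replicate 1, 5.57 (adjusted p = 0.0459) without Cre replicate 2, and 3.90 over every barcode. Dbh was 3.47 (adjusted p = 0.0385) without Cre replicate 1 and 4.57 (adjusted p = 0.00898) without Cre replicate 2. Prph passed without Cre replicate 2 (3.07, adjusted p = 0.0412), and Dbh also passed with the replicate number as a block (adjusted p = 0.037) and with DESeq2 (adjusted p = 0.000116). Npy had 24 and 4 against 125 and 20, and Snap25 6 and 3 against 54 and 17. In TKO replicate 1 the 75 Dbh UMIs lay in 75 cells. There, 0.359% of fibroblast-like and 0.354% of 847 B cell-like cells had one (median depths 1559.0 and 1321.0 UMIs). B cells should lack it, so no expression in fibroblast-like cells is read from their share. The source of these UMIs was not tested. Without the barcodes rich in these genes, an alternative added after the data were seen, TKO replicate 2 kept 8 Th and 21 Dbh UMIs, and 1 gene was still called. Stmn2, Uchl1 and Isl1 had both TKO libraries below both Cre libraries, as 9.62% of all genes did, and none of them was called.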

How the data were processed

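Counts of 23 bulk and 4 single-cell libraries were analysed, with groups read from the labels. For the stripped samples the title reads nonstripped and the remaining fields stripped, which was used. As deposited by the authors, each bulk table gives unnormalised read counts by symbol. The submitters' processing notes name Trimmomatic 0.36, STAR 2.5.2b, Subread 1.5.2, featureCounts and the build GRCm38, without an annotation or a strand setting. UMI counts were made with Cell Ranger, whose version the file headers give as 6.0.0. Among the stripped counts, 1 column of per-sample values matches no label and was not used. Rows without a symbol (0.0025% of counts or less) were dropped.

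The 31 genes and the lists beside them were chosen with earlier results of these data known. Each bulk table was filtered (filterByExpr, minimum count 10), TMM-scaled and tested with edgeR 4.0.16 (R 4.3.3, limma 3.58.1) (quasi-likelihood), p-values being adjusted after Benjamini and Hochberg over all genes tested, with a threshold of 0.05. CPM uses TMM-scaled library sizes, and lengths are unions of GENCODE vM21 exons. Alternatives were DESeq2 1.42.0, RLE scaling, no filter, a filter at 1 CPM, and each library left out. Named in each comparison were Th and Dbh with up to 12 called genes of smallest p, or with the 3 of smallest p where fewer than 3 passed. Other genes were named after their values were seen. Cells were clustered with scanpy 1.11.5 (2000 variable genes, 30 components, 15 neighbours, Leiden resolution 1, and 2 as an alternative). The 31 genes and mitochondrial genes were left out of the variable genes. Clusters were named from at least 3 markers raised 2-fold, with no doublet caller run. Counts were summed per library for the test. Intervals and floors (3 counts) cover counting error only. The tests were tried on simulated data first. The replicate number of the single-cell titles served as a block in an alternative. Some items are not reported here.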

Additional observations from a re-analysis of the deposited data

How the results depend on the processing

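The 30 genes called higher with the anti-IL-9 antibody numbered 30 under all 9 alternatives (DESeq2, RLE scaling, 2 other filters, 5 libraries left out, 2 of which leave 1 antibody library that is assumed to vary like the IgG libraries), while all genes called higher ran from 2468 to 3876. Cartpt, not called in any, changed sign: -0.1 with DESeq2, -0.01 with RLE scaling, -0.01 without a filter, and from -1.8 to 0.72 with a library left out (-0.33 and -0.34 leaving out IgG replicates 1 and 2, -1.8 leaving out anti-IL-9 replicate 1). In non-stripped TKO against Cre aorta the count of 0 genes called higher became 10 with DESeq2, 8 without a filter, and 0 to 9 with a library left out. In stripped aorta counts stayed at 0, and the change of Th ran from -0.28 (without TKO replicate 2) to 0.91 with a library left out. In fibroblasts the count of 0 lower became 2 with DESeq2 and 4 without a filter. With a library left out, the difference between preparations ran from -0.51 to 0.62 for Th, above 0 without stripped Cre replicate 1 (0.14), Cre replicate 2 (0.08) or TKO replicate 2 (0.62), and from -0.54 to 0.18 for Dbh, above 0 without stripped TKO replicate 2. Over single-cell sums the 1 gene called higher became 2 with the replicate number as a block, 0 over every barcode, 4 with DESeq2, 8 without a filter and 0 to 6 with a library left out, and the count of 0 lower became 1 without a filter and 0 to 1 with a library left out. The deviations of same-numbered single-cell libraries correlated at 0.31. With 2 pairs this settles neither that the numbers pair the samples nor that they do not, and the unblocked count is the one given in the results. In the Schwann-like class 0 became 2 without a filter and 0 to 2 with a library left out, with the same assumption for a lone library. The causes were not tested. The depth of the single-cell libraries limits what can be said of Th, at 1 to 29 UMIs per library.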
